A study of Rattus norvegicus with 19 samples.

Results

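The genes described here are 9 genes of myelin and of the oligodendrocyte, the glial cell that makes it: Mbp, Mobp, Mog, Mag, Cnp, Cldn11, Mal, Sox10 and Ugt8. A probe set, the group of short oligonucleotides that reads one transcript or several transcripts of a gene, was taken when the array's annotation gave it 1 symbol and that symbol was among the 9. This gave 16 of 31042 probe sets, for 9 of 14217 genes. Of these, 3 probe sets read Mobp and 13 read the other genes.

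The arrays compared male inbred Spontaneously Hypertensive rats (SHR), a strain that becomes hypertensive without treatment, with the normotensive Wistar Kyoto strain (WKY). A pair of hypothalamic nuclei was dissected from untreated animals of 12 weeks. The supraoptic nucleus (SON) holds magnocellular neurones that release vasopressin and oxytocin, and the paraventricular nucleus (PVN) holds such cells beside parvocellular neurones. There were 4 SON SHR, 5 SON WKY, 5 PVN SHR and 5 PVN WKY arrays, 19 in all, and a further SON SHR array was not analysed here. The study's methods describe each array as a pool of nuclei from several rats, so the p-values below measure the spread between these pools. In such bulk tissue, fewer cells of a type and less RNA per cell cannot be told apart.

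Oligodendrocytes wrap axons in a compacted spiral of membrane that is rich in galactolipids and held together by a small set of abundant proteins. Their transcripts are among the most strongly cell-type specific in the brain, and the transcription factor Sox10 drives many of them. In the hypothalamus myelinated axons run through and beside both nuclei, and a dissected sample can carry some of this white matter.

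Apart from Sim1, the genes taken as parvocellular markers followed the labels. The summed signal of these 4 genes (Crh, Trh, Sst, Sim1) was 251 to 304 in SON SHR and 377 to 534 in SON WKY arrays. In the PVN it was 3840 to 4379 in SHR and 4561 to 5750 in WKY arrays. Crh, Trh and Sst were lower in the SON in both strains, and Sim1, at 6.54 ± 0.29 in SON SHR (SD, n = 4), 7.51 ± 0.31 in SON WKY, 6.19 ± 0.11 in PVN SHR and 7.13 ± 0.08 in PVN WKY arrays on the log2 scale (SD, n = 5 each), was not. The magnocellular genes Avp, Oxt and Pdyn summed to between 7140 and 18309 over both nuclei. Of the 5 Schwann cell genes on the array, Foxd3 was at the floor on all 19 arrays. The 5 together summed to between 88.0 and 153 per array, and the 9 genes described here to between 3701 and 6410. These sums come from different probe sets, which differ in brightness, and their sizes are not compared as amounts of RNA. Array medians as deposited ran between 35.9 and 46.5. The SON WKY array 3 and the PVN SHR array 4 correlated least with their own groups, with mean Pearson correlations of 0.929 and 0.947 over all probe sets. The ratio of 3′ to 5′ control probe sets, a sign of RNA integrity, overlapped between all groups, with 1.07 to 1.32 for GAPDH and 2.45 to 3.86 for beta-actin.

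The Mobp gene lies on chromosome 8 at chr8:128747117-128777238 (GRCr8, RefSeq). Of its 3 probe sets, only 1368263_a_at gave the largest strain difference seen among the 9 genes, and the others did not share it in both nuclei. RefSeq start-site windows of 300 bases, 250 before and 50 after a start, were matched for 7 of the 9 genes (8 windows, 2 of them for Mbp). The letters ACAAAG or, on the other strand, CTTTGT, which SOX factors can bind, were found in 4 of these 8 windows and in 18.8% of all 33469 windows. The letters ACAATG or CATTGT, another such sequence, were found in 13.2% of all windows and among these genes in 1 Mbp window. The Mobp window held 8 copies of CTTTGT, and 3 of all 33469 windows held at least as many. The parts of the Mobp, Mag and Cnp windows that lie before the annotated gene are shown because each held ACAAAG or CTTTGT, which stands in capitals. They are chr8:128746982-128747116 (+) for Mobp, chr1:95291134-95291294 (-) for Mag and chr10:86011254-86011503 (+) for Cnp, all GRCr8. The remaining window with these letters, chr18:78209995-78210294 (+) for Mbp, lies inside the annotated gene and is not shown.
Mobp: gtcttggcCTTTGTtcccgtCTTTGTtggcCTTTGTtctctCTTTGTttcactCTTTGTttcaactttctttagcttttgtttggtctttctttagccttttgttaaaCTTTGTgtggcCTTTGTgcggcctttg
Mag: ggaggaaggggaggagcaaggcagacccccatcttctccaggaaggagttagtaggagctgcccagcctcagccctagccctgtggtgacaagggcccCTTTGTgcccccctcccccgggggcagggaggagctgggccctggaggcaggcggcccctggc
Cnp: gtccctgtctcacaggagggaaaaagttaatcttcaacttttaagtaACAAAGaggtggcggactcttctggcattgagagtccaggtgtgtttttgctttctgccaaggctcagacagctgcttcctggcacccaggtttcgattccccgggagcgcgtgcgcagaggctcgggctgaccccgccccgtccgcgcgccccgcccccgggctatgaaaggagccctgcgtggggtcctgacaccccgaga
The Mobp sequence shows 7 of its 8 copies, all in one orientation, while the Mag and Cnp sequences hold 1 each, in opposite orientations. These are matches of letters, and no binding was measured.

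Signals below are log2 values after each array was scaled to a common median, with values under the 10th percentile raised to a floor of 1.91. The levels of different probe sets were not read as amounts of RNA, since probes differ in brightness. A probe set was tested where the mean of a compared group reached the median of all probe sets. Of the 16 probe sets, 15 were tested in every comparison. The exception was Ugt8 1368857_at, which was at the floor on 3 of 4 SON SHR, 5 of 5 SON WKY, 4 of 5 PVN SHR and 3 of 5 PVN WKY arrays. A probe set was called at a Benjamini-Hochberg adjusted p under 0.05 (limma, two-sided, over all probe sets tested).

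Mobp, myelin-associated oligodendrocyte basic protein, is a small positively charged protein of the compact layers of central myelin. One of its 3 probe sets, 1368263_a_at, fell in SHR in both nuclei. In the SON its log2 signal was 6.21, 6.54, 6.54 and 6.30 in SHR arrays, against 7.47, 7.75, 7.05, 6.95 and 7.17 in WKY arrays. In the PVN it was 6.77, 6.03, 6.14, 5.99 and 5.81 in SHR arrays, against 7.69, 7.89, 7.81, 7.80 and 7.60 in WKY arrays. In each nucleus the highest SHR array was below the lowest WKY array. The SHR minus WKY difference was -0.88 (SE 0.16, adjusted p = 0.0107) in the SON and -1.61 (SE 0.15, adjusted p = 8.12e-06) in the PVN, a PVN signal in SHR of 0.328 times that in WKY. The difference of these differences was 0.73 (SE 0.24, adjusted p = 0.532), so the strain effect on this probe set was not shown to differ between the nuclei.

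The other Mobp probe sets did not pass in either nucleus. For 1370434_a_at the SON log2 signal was 9.22, 9.67, 9.29 and 9.23 in SHR arrays, against 9.54, 9.74, 9.43, 9.04 and 9.12 in WKY arrays, a difference of -0.02 (SE 0.16, 95% interval -0.36 to 0.32, adjusted p = 0.963). In the PVN it was 9.21, 8.62, 8.80, 7.89 and 8.24 in SHR arrays, against 9.09, 9.31, 9.29, 9.26 and 8.97 in WKY arrays, a difference of -0.63 (SE 0.19, adjusted p = 0.119). In the PVN, 4 of the 5 SHR arrays were thus below every PVN WKY array, and array 1 lay within the WKY range. For 1370500_a_at the SON signal was 5.54, 6.16, 5.91 and 5.49 in SHR arrays, against 5.71, 5.72, 5.91, 4.90 and 5.19 in WKY arrays, and the difference was 0.29 (SE 0.21, 95% interval -0.17 to 0.75, adjusted p = 0.489). The PVN signal of 1370500_a_at was 6.05, 5.24, 5.61, 5.07 and 5.14 in SHR arrays, against 5.66, 5.56, 5.62, 5.49 and 5.25 in WKY arrays, with a difference of -0.10 (SE 0.17, 95% interval -0.45 to 0.26, adjusted p = 0.871). Strain groups overlapped for both probe sets in both nuclei.

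**Figure D1:**
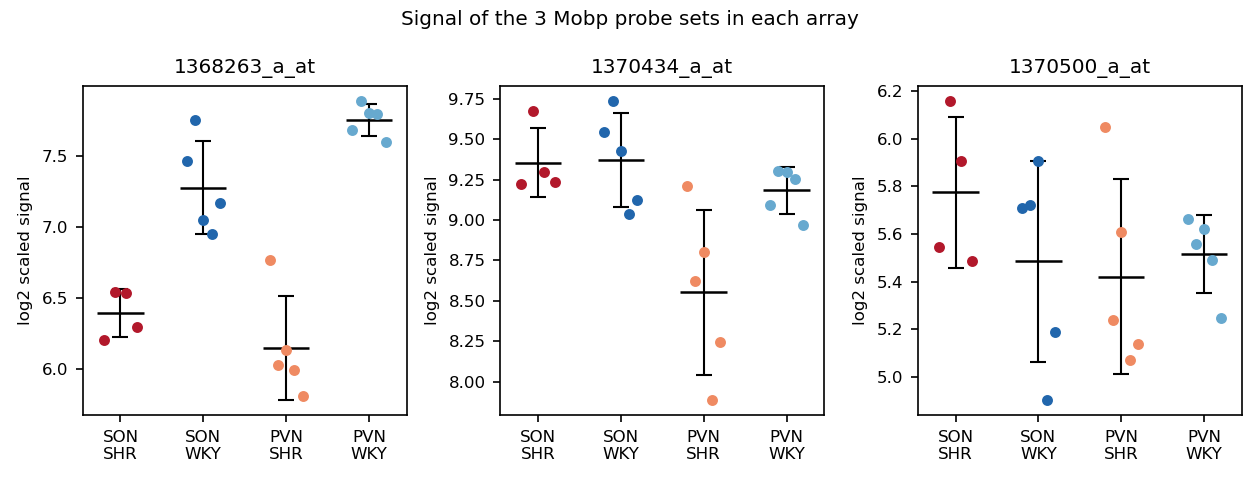
Log2 scaled signal (vertical axes, each panel with its own range) of the 3 Mobp probe sets in the SON SHR, SON WKY, PVN SHR and PVN WKY arrays; points are arrays, lines and bars the mean and SD. Probe set 1368263_a_at is lower in every SHR array than in any WKY array of the same nucleus, with a highest PVN SHR value of 6.77 and a lowest PVN WKY value of 7.60, and the other panels overlap.

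Because the 3 probe sets were read from the same arrays, their ratio within an array was also taken, a description chosen because 1368263_a_at had been seen to differ from the other 2. It restates those values in another form and is given with no test and no background. The log2 ratio of 1368263_a_at over 1370434_a_at averaged -2.96 ± 0.16 in SON SHR (SD, n = 4) and -2.09 ± 0.17 in SON WKY arrays (SD, n = 5). In the PVN it averaged -2.41 ± 0.30 in SHR and -1.43 ± 0.05 in WKY arrays (SD, n = 5 each). The ratio was at most -2.75 in the SON SHR arrays, against a lowest SON WKY value of -2.37, and at most -1.90 in the PVN SHR arrays, against a lowest PVN WKY value of -1.49. The log2 ratio of 1368263_a_at over 1370500_a_at averaged 0.62 ± 0.18 in SON SHR (SD, n = 4) and 1.79 ± 0.38 in SON WKY arrays (SD, n = 5), and 0.73 ± 0.14 in PVN SHR and 2.24 ± 0.14 in PVN WKY arrays (SD, n = 5 each). In these values neither ratio overlapped between the strains in either nucleus. The ratio of 1370434_a_at over 1370500_a_at overlapped between the strains in the SON and did not in the PVN, at 3.13 ± 0.21 in SHR and 3.67 ± 0.14 in WKY arrays (SD, n = 5 each). The suffix _a_at marks a probe set designed against several transcripts of a gene, and which Mobp transcripts each one reads was not analysed here.

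**Figure D2:**
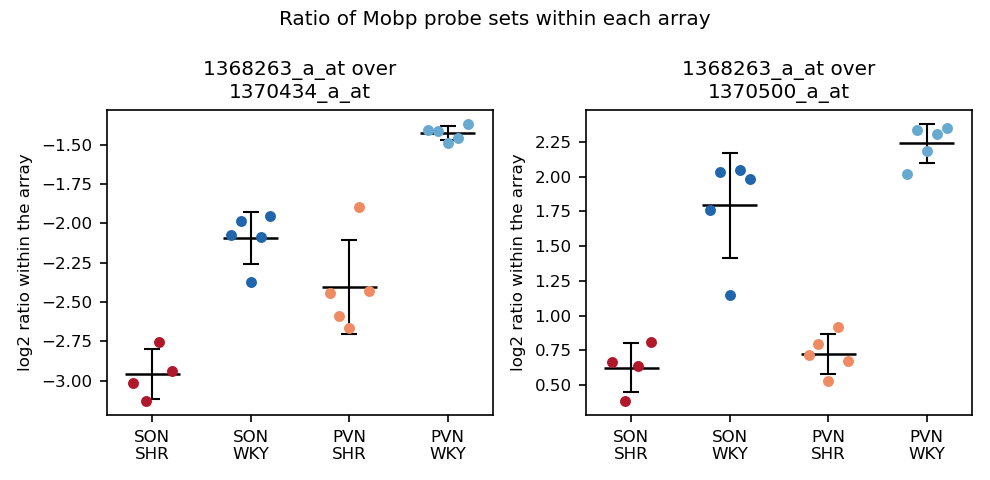
Log2 ratio of Mobp 1368263_a_at over 1370434_a_at (left) and over 1370500_a_at (right) within each array, by group; points are arrays, lines and bars the mean and SD. Each SHR group lies below the WKY group of its nucleus, for example 0.53 to 0.92 in PVN SHR against 2.02 to 2.35 in PVN WKY arrays in the right panel.

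Read against all probe sets, 1 of 15 tested probe sets was called in each nucleus, and it was Mobp 1368263_a_at both times. In the SON 3.62% of all 16190 tested probe sets were called and 2.33% were called lower, and in the PVN 2.36% of 16104 were called and 1.22% were called lower. A further limit of a 2-fold difference was met by this probe set in the PVN, where 0.627% of all probe sets were called and past it, and not in the SON, where 0.766% were. Strain groups did not overlap for 1 of 15 probe sets in each nucleus, against 9.83% of all probe sets in the SON and 4.37% in the PVN. Of the other probe sets 0 of 14 were called in each nucleus (limma), a count that is no result about the genes at these backgrounds. Among them, 3 of the 14 in the SON and 2 of the 14 in the PVN had an unadjusted p under 0.05, against 19.3% and 13.5% of all probe sets.

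Mbp encodes myelin basic protein, which binds the inner faces of the myelin membrane to each other. Its probe set of highest mean, 1368810_a_at, had SON log2 signals of 11.46, 11.38, 11.35 and 11.38 in SHR arrays, against 11.47, 11.47, 11.33, 11.42 and 11.39 in WKY arrays. The strain groups overlapped, and the difference was -0.02 (SE 0.09, 95% interval -0.21 to 0.16, adjusted p = 0.910). In the PVN the signals were 11.28, 11.02, 10.94, 10.69 and 10.78 in SHR arrays, against 11.32, 11.45, 11.34, 11.23 and 11.18 in WKY arrays. Again 4 of the 5 PVN SHR arrays were below all PVN WKY arrays, and the difference was -0.36 (SE 0.12, adjusted p = 0.168). It was called where deposited values were not rescaled (adjusted p = 0.0441), where arrays were weighted (adjusted p = 0.0397) and without PVN SHR array 1 (adjusted p = 0.0268). It was -0.14 (adjusted p = 0.308) with quantile normalization and -0.22 (adjusted p = 0.400) without PVN SHR arrays 4 and 5. The other Mbp probe sets, 1383479_at and 1387341_a_at, differed by 0.12 and 0.33 in the SON and by 0.0021 and -0.02 in the PVN, none past the threshold.

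Mog and Mag encode glycoproteins of the myelin surface. Mog, on the outermost layer, had SON log2 signals of 6.99, 7.55, 7.18 and 7.23 in SHR arrays, against 7.27, 7.35, 6.98, 6.80 and 6.86 in WKY arrays, and PVN signals of 7.22, 6.99, 6.89, 6.15 and 6.36 in SHR arrays, against 6.83, 7.25, 6.96, 6.88 and 6.83 in WKY arrays. The strain differences, 0.19 (SE 0.15) in the SON and -0.23 (SE 0.18) in the PVN, did not pass. Mag, on the layer that faces the axon, had SON signals of 6.63, 6.90, 6.68 and 6.77 in SHR arrays, against 7.03, 7.06, 7.00, 6.66 and 6.57 in WKY arrays. Its PVN signals were 7.64, 7.36, 7.20, 6.98 and 6.58 in SHR arrays, against 7.65, 7.57, 7.37, 7.46 and 7.35 in WKY arrays. The Mag differences, -0.12 (SE 0.13) in the SON and -0.33 (SE 0.16) in the PVN, did not pass either.

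Cnp encodes a phosphodiesterase of the cytoplasm that remains in non-compacted myelin. The strain differences of 1370693_a_at and 1387897_at were -0.01 and -0.06 in the SON and -0.16 and -0.19 in the PVN, none past the threshold, with 95% intervals down to -0.45 in the PVN. The PVN value of 1387897_at was -0.08 with quantile normalization and -0.29 with array weights (adjusted p = 0.0739) or without PVN SHR array 1 (adjusted p = 0.0890). Ugt8, the galactosyltransferase that makes the galactocerebroside of myelin, differed through 1368858_at by 0.25 (SE 0.15, adjusted p = 0.379) in the SON and -0.30 (SE 0.14, adjusted p = 0.375) in the PVN.

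Cldn11, the claudin that seals the lamellae of central myelin with tight junctions, and Mal, a lipid raft protein of myelin, had positive SON values. Cldn11 1369609_at had SON log2 signals of 6.66, 6.07, 6.56 and 5.85 in SHR arrays, against 5.97, 5.71, 5.42, 5.76 and 5.26 in WKY arrays, a difference of 0.66 (SE 0.19, adjusted p = 0.0774). It was called in 5 of 18 alternative analyses, among them the one without SON SHR array 4 (0.80, adjusted p = 0.0437). Cldn11 1376711_at had 10.56, 10.17, 10.38 and 9.94 in SON SHR arrays, against 10.10, 10.03, 9.59, 9.79 and 9.99 in SON WKY arrays, with a difference of 0.36 (SE 0.15, adjusted p = 0.195). Mal had 7.64, 8.08, 7.83 and 7.77 in SON SHR arrays, against 7.73, 7.62, 6.86, 6.99 and 7.34 in SON WKY arrays, a difference of 0.52 (SE 0.18, adjusted p = 0.131). The strain groups overlapped in each case, through SON SHR array 4 or 1. The PVN differences of these 3 probe sets were 0.02, -0.08 and 0.21, none past the threshold.

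Sox10, the transcription factor of the whole lineage, had SON log2 signals of 5.55, 5.94, 5.75 and 5.48 in SHR arrays, against 5.92, 5.90, 5.81, 5.48 and 5.52 in WKY arrays. In the PVN they were 6.04, 5.99, 5.48, 3.27 and 5.02 in SHR arrays, against 5.73, 6.16, 5.90, 5.55 and 5.61 in WKY arrays. The value of 3.27 in PVN SHR array 4 was the lowest of the 19 and the PVN difference of -0.63 had an SE of 0.38 (adjusted p = 0.526). Without arrays 4 and 5 of PVN SHR the difference was 0.05.

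**Figure D3:**
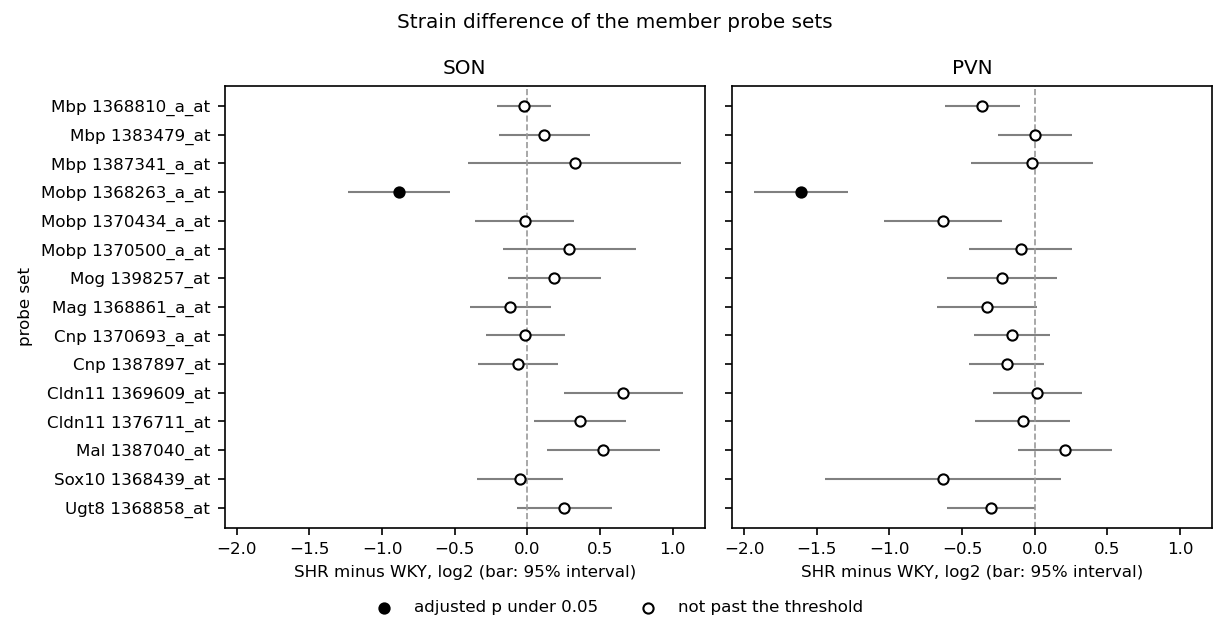
SHR minus WKY difference (log2, horizontal axis) of the 15 tested probe sets in the SON (left) and the PVN (right), with 95% intervals; filled points have an adjusted p under 0.05. The filled point in each panel is Mobp 1368263_a_at, at -0.88 in the SON and -1.61 in the PVN.

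The strain differences were above 0 for 8 of 15 probe sets in the SON and for 3 of 15 in the PVN. Over all probe sets 58.6% were below 0 in the SON and 58.3% in the PVN. The medians of the 15 were 0.12 in the SON, against -0.04 over all probe sets, and -0.19 in the PVN, against -0.04. In the SON the count above 0 was 12 of 15 with quantile normalization or with unscaled values, since 4 differences near 0 changed sign. The difference of the strain differences, SON minus PVN, was above 0 for 15 of 15 probe sets, with a median of 0.38 against -0.01 over all probe sets, of which 51.6% were below 0. None of the 15 was called (limma; 5 had an unadjusted p under 0.05), where 0.0819% of all 17095 probe sets were called and 6.85% had an unadjusted p under 0.05. These 15 values share the same 19 arrays and are not independent of each other.

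The PVN SHR arrays were spread widely for these genes. With each gene taken by its probe set of highest mean and each probe set centred on its own mean, the 9 genes averaged 0.06, 0.30, 0.13 and 0.03 in the SON SHR arrays and -0.19 to 0.20 in the SON WKY arrays. They averaged 0.31, -0.05, -0.10, -0.68 and -0.49 in PVN SHR arrays 1 to 5 and -0.08 to 0.20 in the PVN WKY arrays. The SD over arrays was 0.39 in PVN SHR, against 0.11 in PVN WKY. PVN SHR array 1 was the highest of its group for 12 of 15 probe sets, and arrays 4 and 5 were the lowest for 7 and 6. Among PVN WKY arrays, array 5 was the lowest for 12 of 15. Without PVN SHR array 1, 3 probe sets were called lower in the PVN, Mobp 1368263_a_at and 1370434_a_at and Mbp 1368810_a_at. Leaving out PVN SHR arrays 4 and 5 was chosen after seeing the data. As these arrays had the lowest means of the 9 genes, this step by itself raises the PVN SHR mean. Without PVN SHR arrays 4 and 5, 7 of 15 PVN differences were above 0 and their median was -0.07, against 0.05 over all probe sets. Mobp 1368263_a_at, at -1.45 (SE 0.16, adjusted p = 0.000304), was the probe set called. The difference of strain differences was then above 0 for 13 of 15, with a median of 0.10 against -0.09 over all probe sets.

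**Figure D4:**
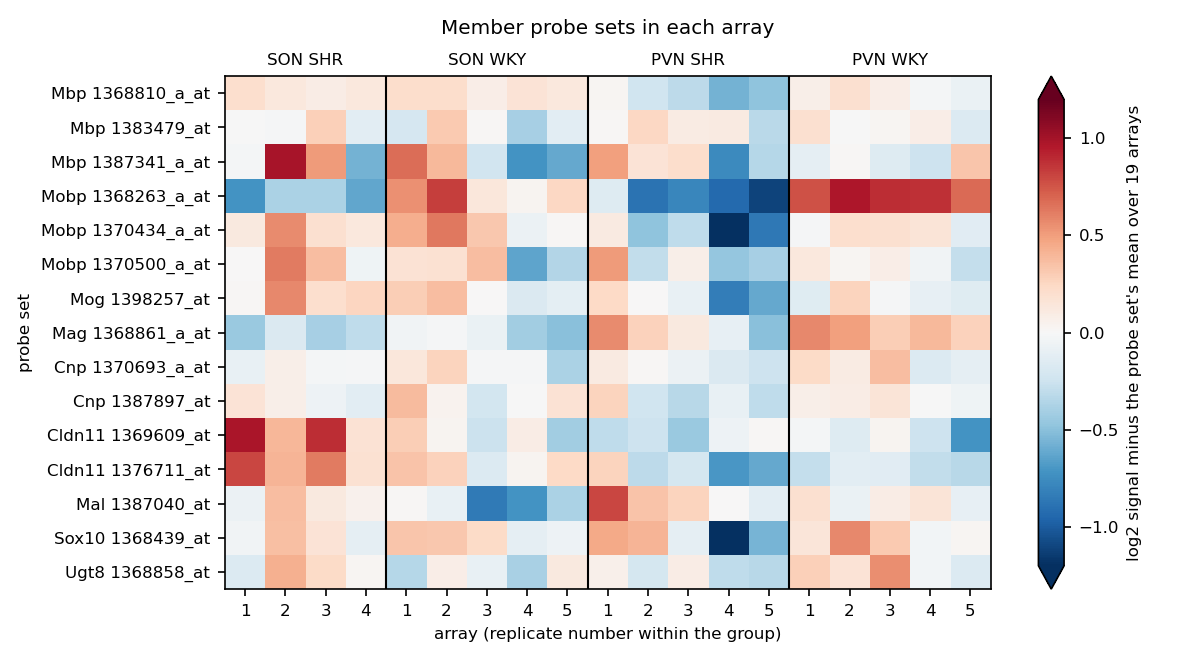
Log2 signal minus the probe set's mean over 19 arrays (colour, red above and blue below the mean, with values past 1.2 in either direction drawn in the end colour) for the 15 tested probe sets (rows) in each array (columns, grouped). PVN SHR arrays 4 and 5 are blue in most rows, and the Mobp 1368263_a_at row is blue in every SHR array and white to red in every WKY array.

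Other measures moved with these arrays, and their part in the result was not tested. PVN SHR arrays 4 and 5 had the 2 highest deposited medians of the 19, 46.5 and 44.5, and array 1 had the lowest, 35.9. The 9 genes described here summed to 5999, 4568, 4476, 3701 and 3772 in PVN SHR arrays 1 to 5, against 4912 to 5814 in PVN WKY arrays, so that 4 of the 5 SHR arrays were below all WKY arrays. The summed signal of 12 neuronal genes was 12417, 10056, 10319, 8378 and 8555 in the same SHR arrays, against 10259 to 11818 in PVN WKY arrays. That of 8 astrocyte genes was 15873, 12569, 11915, 11788 and 12043, against 13795 to 15676, and that of 9 microglial genes was 1533, 1178, 1040, 943 and 973, against 1147 to 1312. Arrays 4 and 5 were thus below the WKY range for all 3 of these lists, array 2 for neurones and astrocytes and array 3 for astrocytes and microglia. Avp, Oxt and Pdyn summed to 9304, 9263, 7140, 9854 and 8048, against 9212 to 12171 in PVN WKY arrays, with arrays 3 and 5 below that range. The 7 endothelial and mural genes summed to 1331, 1234, 1143, 1021 and 1122, against 1052 to 1274, with array 4 below, and the 8 meningeal genes summed to 384 to 409 in PVN SHR arrays, against 306 to 396.

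The probe sets moved together within groups to different degrees. With the group means taken off, the correlation of a probe set with the mean of the other genes over 19 arrays was 0.92 for Mobp 1370434_a_at and for Mog, 0.87 for Mbp 1368810_a_at and 0.81 for Mobp 1368263_a_at. It was 0.36 for Mbp 1383479_at, 0.43 for Cnp 1387897_at and -0.07 for Cldn11 1369609_at. Probe sets of the same gene did not always follow each other, with correlations over 19 arrays between -0.02 (Mbp 1368810_a_at and 1383479_at) and 0.68 (Mobp 1370434_a_at and 1370500_a_at), and 0.18 for Mobp 1368263_a_at and 1370500_a_at. These correlations are descriptions, since the points share arrays and scaling. Outside the lists used here, the genes whose pattern was most like the mean of the 9 over 19 arrays were Pkp4 (r = 0.84), Meis2 (0.84), Slc17a5 (0.83), Fmc1 (0.83) and Rab4a (0.82), of 10157 genes. With group means off they were Meis2 (0.93), Fndc5 (0.92), Nptx1 (0.92), Synpr (0.92) and Vxn (0.92).

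In SHR, 5 of 15 probe sets were higher in the SON, where 29.4% of all 17095 probe sets were called and 13.7% were called higher. Mbp 1368810_a_at was higher by 0.45 (SE 0.10, adjusted p = 0.00268, but 0.15 with an adjusted p of 0.116 after quantile normalization), Mobp 1370434_a_at by 0.80 (SE 0.20, adjusted p = 0.00487), Mog by 0.52 (SE 0.19, adjusted p = 0.0406), Cldn11 1369609_at by 0.81 (SE 0.18, adjusted p = 0.00196) and Cldn11 1376711_at by 0.82 (SE 0.16, adjusted p = 0.000776). SON SHR arrays were above all PVN SHR arrays for 3 of these, and groups did not overlap for 23.0% of all probe sets. The 3 were Mbp 1368810_a_at (lowest SON SHR value 11.35, highest PVN SHR value 11.28), Mobp 1370434_a_at (9.22 and 9.21) and Cldn11 1369609_at (5.85 and 5.69), each by a small margin. Without PVN SHR arrays 4 and 5 the count stayed at 5 but Mog dropped out (0.21, adjusted p = 0.345) and Mag, lower in the SON, entered (-0.65, adjusted p = 0.00187). Mog was also lost without PVN SHR array 4 or 5 and without SON SHR array 2, 3 or 4 (differences of 0.37 to 0.54, adjusted p between 0.0664 and 0.138).

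In WKY, 2 of 15 probe sets were called and both were lower in the SON, where 26.9% of all 17095 probe sets were called and 13.7% were called lower. Mag was 7.03, 7.06, 7.00, 6.66 and 6.57 in SON WKY arrays, against 7.65, 7.57, 7.37, 7.46 and 7.35 in PVN WKY arrays, with no overlap and a difference of -0.62 (SE 0.15, adjusted p = 0.00485). Groups did not overlap for 21.9% of all probe sets. Mobp 1368263_a_at differed by -0.48 (SE 0.16, adjusted p = 0.0330), and this call was lost in 8 of 19 alternatives, among them those without PVN WKY array 2, 3 or 4 and without SON WKY array 3, 4 or 5 (differences of -0.47 to -0.40, adjusted p between 0.0620 and 0.0948). In SHR the SON minus PVN difference of Mag was -0.40 (SE 0.16, adjusted p = 0.0668) and that of Mobp 1368263_a_at was 0.25 (SE 0.17, adjusted p = 0.295). Of the probe sets called in SHR, Cldn11 1376711_at differed in WKY by 0.38 (SE 0.16, adjusted p = 0.0786, called in 8 of 19 alternatives), and the other 4 by 0.10 to 0.19, none past the threshold. Mal differed in WKY by -0.46 (SE 0.17, adjusted p = 0.0543, called in 9 of 19). The nucleus differences of the 2 strains were not shown to differ for any of the 15, since this is the same test as the difference of strain differences above. The shares of 5 of 15 and 2 of 15 stand beside backgrounds of 29.4% and 26.9% and are no result about these genes as a group.

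**Figure D5:**
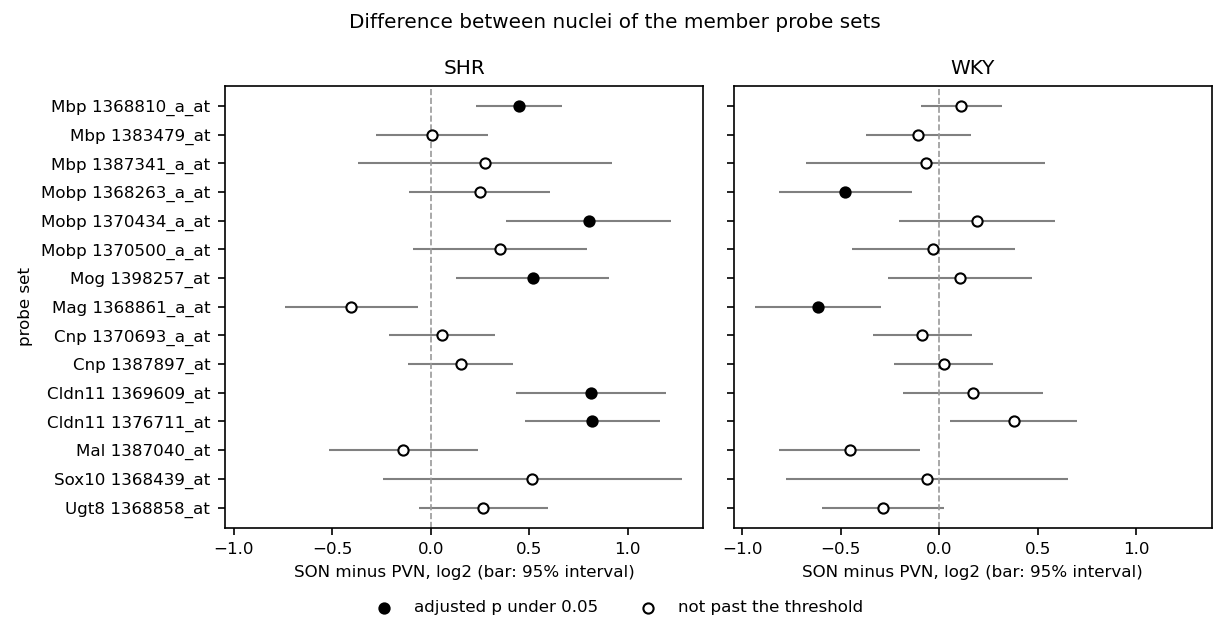
SON minus PVN difference (log2, horizontal axis) of the 15 tested probe sets in SHR (left) and WKY (right), with 95% intervals; filled points have an adjusted p under 0.05. In SHR 5 probe sets are filled to the right of 0, from 0.45 to 0.82, and in WKY Mag (-0.62) and Mobp 1368263_a_at (-0.48) are filled to the left.

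Of 34 further genes of mature oligodendrocytes and myelin, 27 were on the array. Counts between strains in these lists stand beside 3.62% of all probe sets called in the SON and 2.36% in the PVN. In the SON 1 of 25 tested was called, Apod, a secreted lipid carrier, at 9.70 ± 0.17 in SHR (SD, n = 4) and 9.19 ± 0.16 in WKY arrays (SD, n = 5), a difference of 0.51 (SE 0.12, adjusted p = 0.0327). The Apod call was lost in 8 of 19 alternatives, among them the replicate block (adjusted p = 0.102), the methods' t-test and those without SON SHR array 1, 2 or 3 and without SON WKY array 4 or 5 (adjusted p up to 0.110). The median difference of the 25 was 0.13, against -0.04 over all probe sets, and 20 were above 0, where 58.6% of all probe sets were below 0. In the PVN 0 of 22 tested were called (limma; Ndrg1, S1pr5 and Jam3 had an unadjusted p under 0.05), with a median of -0.10 against -0.04. The difference of strain differences was above 0 for 24 of 25 and called for 0, where 51.6% of all probe sets were below 0.

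Of 21 genes of the lineage and its precursors, 18 were on the array. In the PVN 1 of 12 tested was called, Zfp488, a transcriptional regulator of oligodendrocyte differentiation, at 5.48 ± 0.45 in SHR and 4.66 ± 0.21 in WKY arrays (SD, n = 5 each), a difference of 0.82 (SE 0.18, adjusted p = 0.0238). Zfp488 passed the filter on low values only through SHR, the group where it was high, so its being tested was not independent of the difference. This call was lost in 10 of 20 alternatives, among them no filter and those without PVN SHR array 5 and without PVN WKY array 1, 2, 3 or 5 (adjusted p up to 0.246). In the SON 0 of 11 were called, with a median of -0.10 and a range of -0.45 to 0.28. No gene of galactolipid synthesis and breakdown was called between strains among 7 tested in each nucleus. Of 11 genes of axon and paranode contact, 2 of 9 tested fell in the SON of SHR. These were Nfasc, which anchors the node and paranode, at 7.68 ± 0.10 in SHR (SD, n = 4) and 8.12 ± 0.09 in WKY arrays (SD, n = 5), a difference of -0.44 (SE 0.09, adjusted p = 0.0242), and L1cam, an axonal adhesion molecule, which differed by -0.55 (SE 0.12, adjusted p = 0.0291). Nfasc was lost in 6 and L1cam in 8 of 19 alternatives, for both with the replicate block (adjusted p = 0.0823 and 0.0773), without SON SHR array 2 or 4 and without SON WKY array 2 (adjusted p up to 0.0823 and 0.112), Nfasc also without SON SHR array 3 or SON WKY array 1, and L1cam also without SON SHR array 1 or SON WKY array 4, with no filter and with the methods' t-test. In the PVN 0 of 11 were called, with differences between -0.13 and 0.20. The difference of strain differences was above 0 for 5 of 12 lineage, 2 of 7 galactolipid and 1 of 11 axon contact genes. Its medians in these lists were -0.06, -0.03 and -0.28.

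Between nuclei, 11 of 25 mature genes were called in each strain, 9 higher and 2 lower in the SON in SHR, where 29.4% of all probe sets were called, and 6 higher and 5 lower in WKY, where 26.9% were. The actin-severing protein Gsn was higher in the SON by 1.34 in SHR (adjusted p = 3.86e-07) and 1.13 in WKY (adjusted p = 1.81e-06), and the junctional adhesion molecule Jam3 differed by -1.53 in SHR and -1.48 in WKY. Aspa, which cleaves N-acetylaspartate in oligodendrocytes, was higher in the SON by 1.04 in SHR and 0.47 in WKY, and Apod by 1.18 in SHR and 0.41 in WKY. Plekhb1 differed by -0.85 in SHR and -1.08 in WKY, and Gpr37, a receptor found in oligodendrocytes, by -0.40 in SHR (adjusted p = 0.0615) and -0.70 in WKY (adjusted p = 0.00135). Among precursor genes Pdgfra, the growth factor receptor of oligodendrocyte precursors, was higher in the SON by 0.90 in SHR and 0.73 in WKY, and the transcription factor Nkx2-2 differed by -1.36 in SHR and -1.07 in WKY. Galc, which breaks down galactocerebroside, differed by -1.22 in SHR and -0.94 in WKY. Of 12 lineage genes, 3 were called higher and 3 lower in the SON in SHR, and 2 and 2 in WKY. Of 7 galactolipid genes, 2 were higher and 1 lower in SHR, and 1 and 1 in WKY. Of 11 axon contact genes, 1 was higher and 6 were lower in SHR, and 1 and 2 in WKY. The largest axon contact difference was that of Cntnap1, at -1.81 in SHR and -1.235 in WKY.

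Markers of other cell types moved beside these values, and their part in them was not tested. In all, 8 of 8 meningeal and fibroblast genes (among them Dcn, Lum, Col1a1 and Igf2) were called higher in the SON than the PVN in both strains. Over all probe sets 13.7% were called higher in SHR and 13.2% in WKY. Only 2 of these 8 genes passed the filter on low values in the PVN strain fit, and 8 in the SON strain fit. Most were thus tested through the SON, where they were high, and their being tested was not independent of the difference. Their summed signal was 2785 to 6943 in SON SHR and 2191 to 3493 in SON WKY arrays. In the PVN it was 384 to 409 in SHR and 306 to 396 in WKY arrays. Between strains in the SON, 8 of 8 were above 0 and 2 were called. In SON SHR arrays 1 to 4 the meningeal sums were 6943, 3723, 5123 and 2785, beside Cldn11 1369609_at signals of 6.66, 6.07, 6.56 and 5.85. In SON WKY arrays 1 to 5 the sums were 3214, 3163, 2191, 3134 and 3493, beside 5.97, 5.71, 5.42, 5.76 and 5.26. Whether meningeal tissue took part in the Cldn11 values was not tested. In the PVN, 4 of 4 ependymal genes were above 0 and 2 were called higher in SHR, with sums of 972 to 1187 in SHR and 680 to 885 in WKY arrays. The difference of strain differences was above 0 for 7 of 8 meningeal genes (median 0.50), 5 of 6 microglial (0.27) and 5 of 7 astrocyte genes (0.17). It was above 0 for 5 of 11 neuronal and 1 of 4 ependymal genes. A shift above 0 was thus not particular to the myelin genes.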

How the data were processed

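RNA of dissected SON and PVN pools from SHR and WKY rats was amplified and hybridised to 1-colour Affymetrix rat arrays. The deposited intensity values are MAS5 signals, 1 per probe set and array, made by the authors (MAS5 is named in the submitters' processing notes, with no version). The table held 31099 probe sets. The 57 control probe sets were left out, 436 probe sets had several symbols and 9831 had none, and 20764 symbols were kept or updated through Entrez identifiers. Groups came from the labels.

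Each array was scaled to a common median, values under the 10th percentile (a signal of 3.765) were raised to it, and log2 was taken. A probe set was tested where at least 1 group of the fit had a mean no lower than the 50th percentile of the probe-set means, with limma 3.58.1 (lmFit and eBayes) in R 4.3.3, with Benjamini-Hochberg adjustment over all tested. Strain differences were fitted within a nucleus, and nucleus differences and the difference of differences over all 4 groups (19 arrays). Detection calls were not used here, and the number of arrays limits the precision. The fits were tested on simulated data.

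All probe sets of the 9 genes were described. A gene of the 4 pathway lists was represented by its probe set of highest mean and could be named when called, at most 4 per list and comparison. Between nuclei only some of the called genes were named. Genes most like the mean of the 9 were the 5 of highest Pearson correlation. The 9 genes and the lists were chosen with earlier results of these data known. Ndrg1, S1pr5 and Jam3 in the PVN were named after their values were seen.

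Alternatives were quantile normalization, unscaled deposited values, log2(value + 16), no filter, a filter at the 75th percentile, a replicate block, eBayes with trend and robust, array weights, the methods' t-test (Welch), another choice of groups in the fit, and each array left out in turn. Leaving out PVN SHR arrays 4 and 5 together, and running the alternatives for the listed genes, were chosen after seeing the data. Promoter windows and gene positions came from RefSeq tables of GRCr8. Tables and figures were made with Python 3.11.15 and matplotlib 3.10.9.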

Additional observations from a re-analysis of the deposited data

Results flagged for a closer look

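In 64 groups of 4 or 5 arrays, one for each of 16 probe sets and 4 groups, 3 held an array that stood apart from the rest of its group by Dixon's test, which flags about 5% of groups by chance. Mobp 1370434_a_at was 9.67 (log2) in SON SHR array 2, against 9.22 to 9.29 in the other SON SHR arrays. Ugt8 1368857_at was 3.08 in SON SHR array 3 and 2.17 in PVN SHR array 5, against the floor of 1.91 in the other arrays of each group. With the rest of a group at the floor, any value above it is flagged. The Ugt8 flags thus follow from the floor, and the 5% rate does not apply to them.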

How the results depend on the processing

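Mobp 1368263_a_at was lower in SHR in all alternatives run, and called in 21 of 21 in the PVN (differences of -1.77 to -1.41) and in 17 of 19 in the SON (-0.98 to -0.76). In the SON it was lost with no filter on low values (adjusted p = 0.0701) and with the methods' t-test (adjusted p = 0.0774). In both of these, 0 of the probe sets of the 9 genes were called. The SON strain count of 1 became 2 with unscaled values, the stricter filter, trend and robust, array weights or all 4 groups in the fit, and was 1 to 2 with an array left out (2 without SON SHR array 4). The PVN strain count of 1 became 2 with quantile normalization or unscaled values and 3 with array weights, and was 1 to 3 with an array left out. The WKY nucleus count of 2 became 4 with quantile normalization, unscaled values, the stricter filter, trend and robust or only the 2 groups compared, 3 with log2(value + 16), 1 with no filter, and was 1 to 3 with an array left out. The SHR nucleus count of 5 was 4 with quantile normalization, no filter or only the 2 groups compared, 6 with unscaled values or trend and robust and 7 with array weights. The difference of strain differences had 0 calls throughout. The cause of these changes was not tested. For the SON and nucleus counts the calls over all probe sets in each alternative are not given here, so their changes are no result about the genes.

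Same-numbered arrays deviated from their group means with correlations of -0.226 to 0.174, so the numbers were not taken as pairing. With the replicate block the counts were 1 in the SON and 1 in the PVN between strains, 6 in SHR (5 without it) and 4 in WKY (2 without it) between nuclei, and 0 for the difference of differences. Among the listed genes, Apod, Nfasc and L1cam lost their SON strain calls with the block (adjusted p = 0.102, 0.0823 and 0.0773). In SHR the block turned Mbp 1383479_at to -0.04 and Cnp 1370693_a_at to -0.0036.

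Sign changes lay among differences that did not pass. In the SON between strains, quantile normalization gave 0.06 for Mbp 1368810_a_at, 0.08 for Mobp 1370434_a_at, 0.03 for Cnp 1370693_a_at and 0.06 for Cnp 1387897_at, and unscaled values gave 0.04, 0.04 and 0.05 for the first 3 and 0.01 for Sox10. In the PVN between strains, Mbp 1387341_a_at was 0.02 with unscaled values and 0.09 with array weights, Cldn11 1369609_at was -0.01 with array weights and Cldn11 1376711_at was 0.02 with quantile normalization. In WKY between nuclei, quantile normalization gave -0.05 for Mbp 1368810_a_at and -0.03 for Cnp 1387897_at, and array weights gave 0.19 for Mbp 1387341_a_at, 0.04 for Mobp 1370500_a_at, 0.05 for Cnp 1370693_a_at and 0.04 for Sox10. Array weights gave -0.0037 for Cnp 1370693_a_at in the difference of differences. Without PVN SHR arrays 4 and 5, a choice made after seeing the data, the PVN strain difference was 0.32 for Mbp 1387341_a_at, 0.12 for Mobp 1370500_a_at, 0.08 for Mog, -0.11 for Cldn11 1369609_at, 0.14 for Cldn11 1376711_at and 0.05 for Sox10. The difference of differences was then -0.03 for Mag and -0.10 for Sox10, with 13 of 15 above 0. The SON minus PVN difference in SHR was then -0.09 for Mbp 1383479_at, -0.06 for Mbp 1387341_a_at, -0.03 for Cnp 1370693_a_at and -0.16 for Sox10.

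With 1 array left out, PVN strain differences ran from -0.05 to 0.09 for Mbp 1383479_at, -0.15 to 0.16 for Mbp 1387341_a_at, -0.11 to 0.08 for Cldn11 1369609_at and -0.23 to 0.01 for Cldn11 1376711_at. SON strain differences ran from -0.12 to 0.07 for Mobp 1370434_a_at, -0.11 to 0.05 for Cnp 1370693_a_at, -0.14 to 0.01 for Cnp 1387897_at and -0.14 to 0.02 for Sox10. WKY nucleus differences ran from -0.26 to 0.09 for Mbp 1387341_a_at, -0.14 to 0.11 for Mobp 1370500_a_at, -0.15 to 0.01 for Cnp 1370693_a_at, -0.05 to 0.10 for Cnp 1387897_at and -0.12 to 0.03 for Sox10, and the SHR one from -0.08 to 0.06 for Mbp 1383479_at. Signal over background was not analysed here, so for dim probe sets the floor is the limit.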
